A study of Mus musculus with 3 samples.

Results

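Dppa2, Dppa4, Dppa3, Dppa5a, Smc1b and Triml2 are genes linked to pluripotency and the germline, and their levels were compared between visceral endoderm (VE) and epiblast-like (Epi) cells of 3 types of multicellular aggregate. They are 6 of the 32285 genes counted, and were listed by name with results of these data known, among them that Dppa5a was higher in VE than in Epi cells of BELAs. The values below therefore describe these libraries and are not a test.

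The aggregates were bilayered embryo-like aggregates (BELAs), in which a VE layer surrounds an Epi core, and cysts of each lineage alone. All came from mouse embryonic stem cells of the E14tg2a background that carry a doxycycline-inducible GATA4-mCherry transgene (iGATA), a factor that drives cells towards primitive endoderm. BELAs and VE cysts were made from the single clone C6. For BELAs, cells in 2i and LIF received 0.5 µg/ml doxycycline for 8 h, then N2B27 for 16 h, and formed aggregates over 3 days in N2B27. For VE cysts the doxycycline was continued during those 16 h, and FGF4 at 10 ng/ml with heparin at 1 µg/ml was present then and for the following 3 days. Epi cysts received no doxycycline and grew from cells embedded in matrigel, for 1 day in 2i and LIF and 3 days in N2B27. About 200 BELAs and about 200 VE cysts were picked by hand, and VE cysts with a clear Epi core were passed over, so the Epi cells in that library are those the picking left.

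Each type of aggregate was 1 library of 3′ single-cell RNA counts. Barcodes were kept with 4000 genes or more and a mitochondrial share of UMIs (unique molecular identifiers, 1 per captured mRNA) no higher than 10%. By this filter 1410 BELA cells, 657 Epi cyst cells and 625 VE cyst cells remained, with medians of 82741.5, 60160 and 58554 UMIs per cell. A cell counted as VE when its summed UMIs of Gata6, Sox17, Dab2 and Cubn exceeded those of Pou5f1, Sox2, Nanog and Fgf4, and otherwise as Epi. This gave 542 VE and 868 Epi cells in BELAs, 577 VE and 48 Epi cells in VE cysts, and 656 Epi cells in Epi cysts, besides 1 VE cell there that was not compared. The marker sums that define the lineages were 2842 and 3003 CPM (UMIs scaled to 1000000 per group) for VE markers in the 2 groups of VE cells against 2.96 to 23.2 CPM in Epi cells, and for Epi markers 578 to 803 CPM in Epi cells against 38.7 and 18.6 CPM in VE cells of BELAs and VE cysts. The cells called VE also carried markers of parietal endoderm, the other extraembryonic endoderm, which summed to 7517 CPM in the VE cells of BELAs, to 19088 CPM in those of VE cysts and to between 80.5 and 138 CPM in Epi cells, with 5 of the 6 markers past 2-fold higher in VE than in Epi cells in each library and Thbd at or below 0.169 CPM in every group. VE here therefore names the marker rule, not visceral as opposed to parietal endoderm.

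In the embryo, pluripotent epiblast cells lie inside a layer of VE, and germ cells later arise from the epiblast. The Dppa (developmental pluripotency associated) genes were named for their expression in pluripotent cells and do not form 1 protein family: Dppa2 and Dppa4 encode related SAP-domain proteins that bind chromatin as a pair, Dppa3 (also called Stella) encodes a protein of oocytes and primordial germ cells that shields the maternal genome from demethylation, and Dppa5a encodes a KH-domain protein of pluripotent cells. Smc1b encodes the meiotic form of a cohesin subunit, whose counterpart in dividing cells is Smc1a, and Triml2 encodes a TRIM-like protein next to its relative Triml1. Many germline promoters are rich in CpG and are kept silent in somatic cells by DNA methylation and by repressor complexes that contain Pcgf6, Mga and E2f6.

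On the GRCm38 assembly, Dppa2 (ENSMUSG00000072419) lies at chr16:48303908-48319723 and Dppa4 (ENSMUSG00000058550) at chr16:48283733-48294237, both on the plus strand and 9670 bases apart. Dppa3 (ENSMUSG00000046323) lies at chr6:122626410-122630272 on the plus strand, Dppa5a (ENSMUSG00000060461) at chr9:78367052-78368177 on the minus strand, Smc1b (ENSMUSG00000022432) at chr15:85064689-85131964 on the minus strand and Triml2 (ENSMUSG00000091490) at chr8:43180541-43193881 on the plus strand. RefSeq promoters, running from 250 bases before to 50 bases after the start of transcription, were matched for 2 of the 6, Smc1b and Triml2, and for Triml1. Smc1b and Triml2 are shown as the 2 members past 2-fold between the lineages of BELAs, and Triml1 because its levels took the same order as those of Triml2. CpG pairs are in capitals, and each sequence runs 5′ to 3′ on the strand of its gene. Smc1b covers chr15:85131908-85132207 (minus strand), Triml2 chr8:43180286-43180585 (plus strand) and Triml1 chr8:43141437-43141736 (minus strand), all on GRCm38.p6.
Smc1b: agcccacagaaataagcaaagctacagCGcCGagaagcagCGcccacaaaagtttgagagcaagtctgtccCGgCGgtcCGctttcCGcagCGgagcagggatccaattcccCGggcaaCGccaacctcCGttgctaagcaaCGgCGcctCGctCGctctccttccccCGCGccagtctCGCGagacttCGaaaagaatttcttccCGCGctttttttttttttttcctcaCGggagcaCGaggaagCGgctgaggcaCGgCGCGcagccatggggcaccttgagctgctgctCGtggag
Triml2: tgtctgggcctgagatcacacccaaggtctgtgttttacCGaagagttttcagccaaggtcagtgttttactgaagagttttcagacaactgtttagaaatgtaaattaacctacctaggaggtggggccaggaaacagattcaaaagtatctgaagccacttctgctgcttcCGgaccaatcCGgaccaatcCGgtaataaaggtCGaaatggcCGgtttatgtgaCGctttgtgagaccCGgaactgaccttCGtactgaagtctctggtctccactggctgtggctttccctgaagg
Triml1: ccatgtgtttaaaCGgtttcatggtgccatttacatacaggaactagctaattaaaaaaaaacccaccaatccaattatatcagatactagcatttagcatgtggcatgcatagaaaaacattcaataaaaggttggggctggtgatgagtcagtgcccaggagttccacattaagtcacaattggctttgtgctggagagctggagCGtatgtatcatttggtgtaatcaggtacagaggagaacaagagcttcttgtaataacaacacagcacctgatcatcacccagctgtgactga
The Smc1b promoter held 29 CpG pairs and was 60% G or C, and 12.9% of the 32841 promoters in the table held as many CpG pairs. The Triml2 promoter held 9 CpG pairs, near the median of 7 over all promoters, and the Triml1 promoter held 2. The motif GCGGGAA, the letters of an E2F6-type site with a CpG of its own, was found on either strand once in Smc1b, against 4.6% of all promoters with a match. CACGTG, the E-box of Max and its partners and the same on both strands, was found in none of the 3, against 7.15% of all promoters. CCAAT, searched after the sequences had been read, was found on either strand once in Smc1b, in 2 places in Triml2 and in 3 in Triml1, against 37.4% of all promoters with at least 1 match and 3.37% with at least 3. These are counts of letters and not bound sites.

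For each gene, the UMIs of a group were summed and divided by the group's total to give CPM, with exact 95% Poisson intervals. Intervals of levels, ratios and shares cover counting error only, because each type of aggregate is 1 library and cells are not replicates. No p-value could be had, and a difference between libraries has no replicate check. Counts are taken near the 3′ end of each mRNA, so levels are compared between groups for 1 gene and not between genes.

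**Figure D1:**
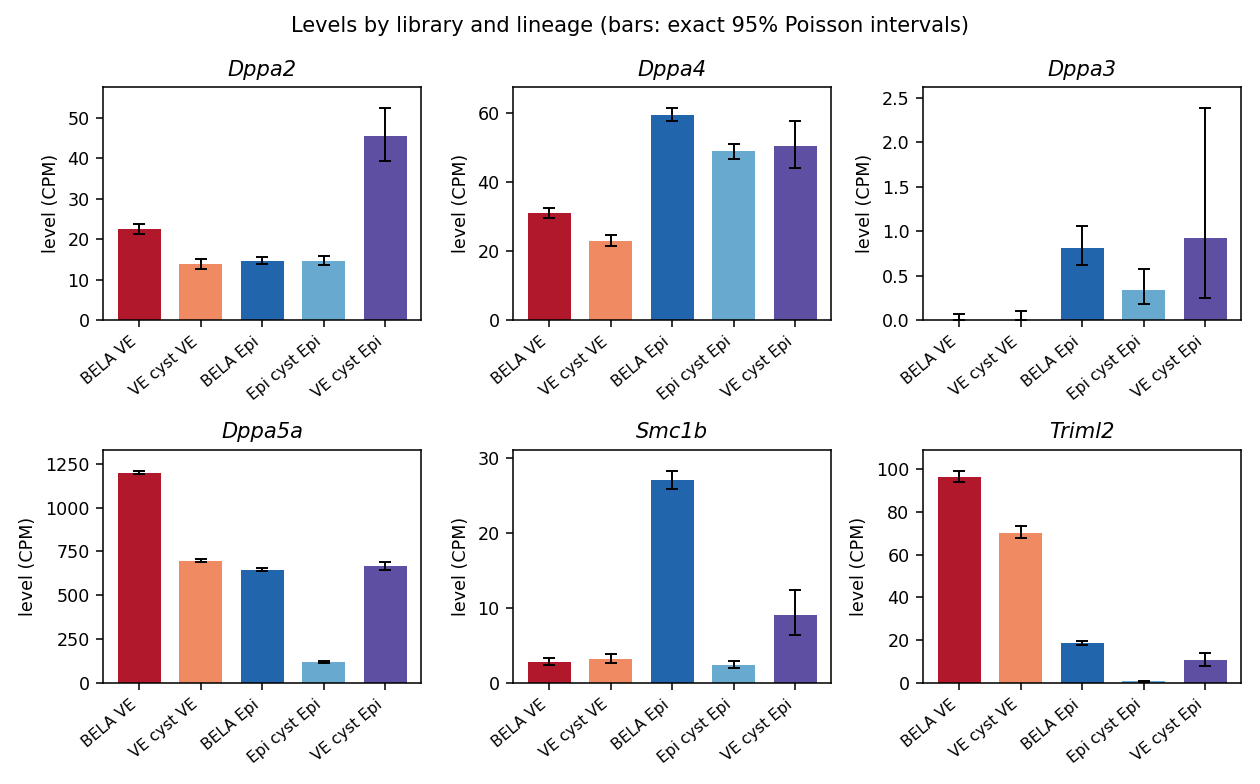
Levels of the 6 genes in CPM (y axis of each panel, starting at 0 and scaled to the gene) in the 5 groups of cells (x axis), 1 library per type of aggregate. Coloured bars are levels and black error bars exact 95% Poisson intervals, which cover counting error only. Dppa5a and Triml2 are highest in BELA VE cells at 1199 and 96.4 CPM, Dppa4 and Smc1b in BELA Epi cells at 59.4 and 27.04 CPM, and Dppa2 in VE cyst Epi cells at 45.5 CPM.

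Dppa2 and Dppa4, neighbours on chromosome 16 whose proteins work as a pair, were ordered differently across the groups. Dppa2 stood at 22.5 (21.3 to 23.8) CPM in BELA VE cells, 13.9 (12.8 to 15.2) in VE cyst VE cells, 14.7 (13.9 to 15.7) in BELA Epi cells, 14.8 (13.6 to 16.0) in Epi cyst Epi cells and 45.5 (39.4 to 52.4) in VE cyst Epi cells. The few Epi cells of the VE cysts were thus highest and BELA VE cells next, and the intervals of the other 3 groups overlapped. Between the lineages of BELAs, Dppa2 was 1.53-fold (1.41 to 1.66) higher in VE cells. With lineages called by 4 other markers each, which put 1169 BELA cells in VE, this direction turned, to 17.5 CPM in VE and 21.1 CPM in Epi cells, whereas without Apoe and Tdh among those markers it was 21.9 CPM in VE and 15.2 CPM in Epi cells. In VE cysts Dppa2 was 3.26-fold (2.75 to 3.86) higher in Epi cells. That value rests on 196 UMIs in 48 cells, against 1063 UMIs in the 868 BELA Epi cells.

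Dppa4 followed the lineage in both libraries that held both. It stood at 31.1 (29.6 to 32.6) CPM in BELA VE and 22.9 (21.4 to 24.5) in VE cyst VE cells, and at 59.4 (57.6 to 61.2) in BELA Epi, 48.8 (46.7 to 51.0) in Epi cyst Epi and 50.4 (43.9 to 57.6) in VE cyst Epi cells. All 3 groups of Epi cells lay above both groups of VE cells, and among the Epi groups the intervals of the cysts overlapped. Epi cells exceeded VE cells 1.91-fold (1.81 to 2.02) in BELAs and 2.20-fold (1.89 to 2.56) in VE cysts. The lineage ratio of Dppa4 was thus on the opposite side of 1 from that of Dppa2 in BELAs and on the same side in VE cysts.

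Dppa3 was rare and was seen in Epi cells alone. No UMI was counted in the 542 BELA VE or 577 VE cyst VE cells, which allows up to 0.0550 and 0.0845 CPM when 3 counts are taken as the limit. It stood at 0.818 (0.623 to 1.06) CPM in BELA Epi cells from 59 UMIs, at 0.343 (0.187 to 0.575) in Epi cyst Epi cells from 14 UMIs and at 0.929 (0.253 to 2.38) in VE cyst Epi cells from 4 UMIs. With 3 counts in the VE group as the floor, the level in Epi cells of the same library was 14.9 times that floor in BELAs and 10.99 times in VE cysts. Counting error in the Epi cells makes this less certain. The interval of the ratio of VE to Epi cells reached up to 0.0853 in BELAs and 0.184 in VE cysts, where 4 UMIs were counted. Between BELA Epi and Epi cyst Epi cells the ratio was 2.39 (1.32 to 4.63).

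Dppa5a was the member with the most UMIs, and its level differed between libraries as well as between lineages. It stood at 1199 (1190.0 to 1208) CPM in BELA VE, 696 (687 to 704) in VE cyst VE, 647 (641 to 653) in BELA Epi, 119.9 (117 to 123) in Epi cyst Epi and 667 (643 to 692) in VE cyst Epi cells. BELA VE cells were highest and Epi cyst Epi cells lowest, and in the middle the interval of the VE cyst Epi cells overlapped those of VE cyst VE and BELA Epi cells. VE exceeded Epi cells 1.85-fold (1.83 to 1.88) in BELAs, the difference for which the gene was listed, and 1.04-fold (1.00 to 1.08) in VE cysts. The second ratio fell below 1 under 4 of the 12 other ways of processing the counts, among them leaving out mitochondrial and ribosomal protein genes from the total. Across libraries, Epi cells of BELAs exceeded those of Epi cysts 5.39-fold (5.24 to 5.56), and VE cells of BELAs exceeded those of VE cysts 1.72-fold (1.70 to 1.75).

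Dppa5a counts may hold reads of near-identical genes. Of the 451 stretches of 50 bases in the last 500 bases of its transcript, 46.3% also occurred in other transcripts, of 9 genes. Of these, 7 are pseudogenes and 1, Pigp, is among the genes counted here. For Dppa3 the share was 10.6%, with 3 pseudogenes, and for Dppa2, Dppa4, Smc1b and Triml2 it was 0. How the reads of these copies were divided was not tested.

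Smc1b was high in 1 group of the 5. It stood at 27.04 (25.9 to 28.3) CPM in BELA Epi cells and 9.06 (6.44 to 12.4) in VE cyst Epi cells, against 2.84 (2.41 to 3.33) in BELA VE, 3.21 (2.65 to 3.86) in VE cyst VE and 2.47 (2.01 to 3.00) in Epi cyst Epi cells. The intervals of the last 3 overlapped, those of Epi cells grown without VE among them. Within BELAs the Epi cells exceeded the VE cells 9.51-fold (8.07 to 11.3), and they exceeded the Epi cyst Epi cells 10.9-fold (8.96 to 13.5). In VE cysts the Epi cells exceeded the VE cells 2.82-fold (1.91 to 4.09), from 39 UMIs.

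Triml2 was highest in VE cells of both libraries. It stood at 96.4 (93.8 to 99.0) CPM in BELA VE and 70.3 (67.6 to 73.1) in VE cyst VE cells, at 18.7 (17.7 to 19.7) in BELA Epi and 10.7 (7.82 to 14.2) in VE cyst Epi cells, and at 0.832 (0.576 to 1.16) in Epi cyst Epi cells. No interval overlapped its neighbour in this order. VE exceeded Epi cells 5.15-fold (4.85 to 5.47) in BELAs and 6.58-fold (4.92 to 9.01) in VE cysts, and Epi cells of BELAs exceeded those of Epi cysts 22.5-fold (16.0 to 32.6). Triml1, which starts 39054 bases from Triml2 and is read from the other strand, stood at 25.7, 23.5, 7.70, 0.171 and 2.79 CPM in BELA VE, VE cyst VE, BELA Epi, Epi cyst Epi and VE cyst Epi cells. Its order across the groups was that of Triml2.

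RNA of one lineage was also counted in cells of the other in the mixed libraries. For 217 genes specific to VE cells when the cysts were compared (at least 50 CPM and over 10-fold), the level in BELA Epi cells was a median of 7.59% of that in BELA VE cells, with quartiles of 2.37 and 12.3%. Triml2 in BELA Epi cells was at 19.4% and Triml1 at 30.0% of the BELA VE level, above the upper quartile, and Dppa5a at 53.9%. In VE cysts these genes had a median of 4.42% (quartiles 1.27 and 7.29%) in Epi cells, where Triml2 was at 15.2%. In the other direction, 48 Epi-specific genes stood in BELA VE cells at a median of 9.73% (quartiles 6.57 and 21.8%) of the BELA Epi level, and Smc1b at 10.5%, within those quartiles, while Dppa4 was at 52.3%. In the 227 BELA Epi cells without a UMI of the 4 VE markers, Triml2 stood at 13.7 CPM and Dppa5a at 602 CPM, and in the 245 BELA VE cells without a UMI of the 4 Epi markers Smc1b stood at 1.78 CPM, Dppa4 at 26.1 CPM and Dppa2 at 23.0 CPM. Of the genes named here, only Triml2 met the criteria of the cyst comparison, though members were kept out of the gene sets. Dppa5a was 5.80-fold higher in VE cyst VE than in Epi cyst Epi cells. Triml1, Dppa2, Dppa4 and Smc1b stood below 50 CPM in both groups. For these genes the quartiles are thus those of a different kind of gene. The part of RNA from the other lineage in these levels was not tested.

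For the counts that follow, a gene is called when the ratio of (CPM + 5) is at least 2 or at most 0.5 among genes with at least 1 CPM in either group. Dppa3 did not reach 1 CPM in any group, so 5 of the 6 members were tested. Of these, between VE and Epi cells of BELAs 1 was called higher in VE (Triml2, log2 ratio 2.10) and 1 lower (Smc1b, −2.03), where 10.6% of 13178 genes were called higher and 6.86% lower. Dppa5a at 0.89, Dppa2 at 0.48 and Dppa4 at −0.84 lay between. The median over the 5 was 0.48, and 0.13 with Dppa3 counted in, against −0.08 over all genes tested.

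In VE cysts 1 of the 5 was called higher in VE cells (Triml2, 2.26) and 1 lower (Dppa2, −1.41), where 15.3% of 13612 genes were called higher and 8.98% lower. Dppa4 at −0.99 lay just short of the limit, followed by Smc1b at −0.78 and Dppa5a at 0.06. The median over the 5 was −0.78, and −0.51 with Dppa3 counted in, against 0.08 over all genes tested. In neither library did the members as a group lie on 1 side.

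Between the Epi cells of BELAs and of Epi cysts, 3 of the 5 were called higher in BELAs, Dppa5a at 2.38, Smc1b at 2.10 and Triml2 at 2.02, and 0 lower, where 0.932% of 12879 genes were called higher and 1% lower. Dppa4 was at 0.26 and Dppa2 at 0.00. The median over the 5 was 2.02, and 1.14 with Dppa3 counted in, against −0.02 over all genes tested. The 2 libraries also differed in doxycycline, matrigel, time in 2i and LIF and in N2B27, and the presence of VE cells, and these cannot be told apart. Markers of primitive streak and mesoderm moved with the comparison: the 6 summed to 9.53 CPM in BELA Epi and 80.2 CPM in Epi cyst Epi cells, and 2 of them, T at 0.347 against 19.6 CPM and Fgf8 at 3.36 against 41.3 CPM, were called lower in BELAs. In the 438 Epi cyst cells without a T UMI at equal depth, Dppa5a stood at 125 (119.8 to 130.3), Smc1b at 2.97 (2.22 to 3.89) and Triml2 at 0.799 (0.437 to 1.34) CPM, each below its level in BELA Epi cells. The other markers of the list were not looked at in these cells, and their part in the levels of the members was not tested.

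Between the VE cells of BELAs and of VE cysts 0 of the 5 were called in either direction, where 3.5% of 12741 genes were called, 1.25% higher in BELAs and 2.25% lower. The log2 ratios were 0.78 for Dppa5a, 0.54 for Dppa2, 0.43 for Triml2, 0.37 for Dppa4 and −0.07 for Smc1b, with a median of 0.43, and 0.40 with Dppa3 counted in, against −0.12 over all genes tested. All but Smc1b were thus higher in BELAs, short of 2-fold. FGF4 with heparin, the length of doxycycline and the presence of an Epi core differed between these libraries too, and cannot be told apart. Of the 6 parietal endoderm markers 5 were called lower in BELA VE than VE cyst VE cells, and of 6 markers of anterior visceral endoderm 3 were called higher, with sums of 208 against 17.3 CPM. Their part in the values of the members was not tested. These comparisons share groups of cells with each other, so their values are not independent.

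**Figure D2:**
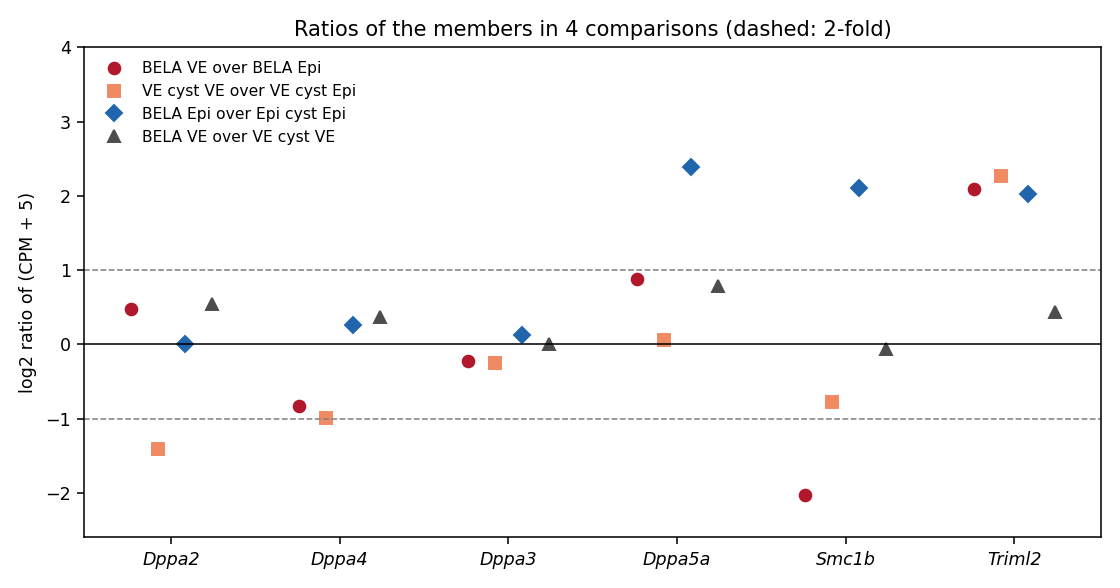
Log2 ratios of (CPM + 5) of the 6 genes (x axis) in the 4 comparisons (marker shape and colour), with dashed lines at 2-fold in each direction. Triml2 lies past 2-fold in 3 comparisons, at 2.10, 2.26 and 2.02, while Dppa2 is at 0.48 and −1.41 in the lineage comparisons of BELAs and VE cysts.

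To compare cells at 1 depth, each cell was thinned to 40000 UMIs, which left out 28 BELA VE, 104 VE cyst VE, 67 BELA Epi, 64 Epi cyst Epi and 4 VE cyst Epi cells with fewer. The median depths before thinning were 90251, 56914, 78973, 60131 and 87189 UMIs per cell in that order. Triml2 had at least 1 UMI in 95.1% (92.9 to 96.8%) of BELA VE, 88.6% of VE cyst VE, 39.95% (36.5 to 43.4%) of BELA Epi, 34.1% of VE cyst Epi and 2.37% (1.30 to 3.94%) of Epi cyst Epi cells. Before thinning the shares were 98.7%, 93.9%, 53.3%, 41.7% and 4.27%. The Epi cyst library held almost no VE cells, so its share does not measure the VE RNA carried over within the other 2 libraries, and how far that RNA set their shares was not tested.

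Smc1b had a UMI in 44.1% (40.6 to 47.6%) of thinned BELA Epi cells and 18.2% (8.19 to 32.7%) of VE cyst Epi cells, and in 9.53%, 10.6% and 7.94% of BELA VE, VE cyst VE and Epi cyst Epi cells. Unthinned, these were 59.2%, 35.4%, 18.1%, 14.4% and 10.5%. In BELA Epi cells the Smc1b UMIs were unevenly spread: their variance over cells was 3.23 times their mean, up to 18 UMIs in a cell, and a Poisson count of equal cells would give a ratio near 1.

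Dppa2 had a UMI in 54.3% of thinned BELA VE cells and in 31.9%, 32.8%, 32.8% and 61.4% of VE cyst VE, BELA Epi, Epi cyst Epi and VE cyst Epi cells, and Dppa4 in 61.3%, 55.6%, 79.2%, 71.3% and 75% in the same order. Unthinned, the shares of Dppa2 were 75.8%, 38.5%, 45.9%, 37.8% and 75%, and those of Dppa4 79.9%, 62.2%, 89.1%, 79.1% and 87.5%. The shares put BELA VE and VE cyst Epi cells above the rest for Dppa2 and Epi cells above VE cells for Dppa4, as the levels do. Dppa3 had a UMI in 24 of 801 BELA Epi cells (3.00%, 1.93 to 4.43%), 8 of 592 Epi cyst Epi cells (1.35%, 0.585 to 2.64%) and 1 of 44 VE cyst Epi cells. It had none in the 514 BELA VE and 473 VE cyst VE cells, which allows shares of up to 0.584 and 0.634% when 3 cells are taken as the limit.

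Dppa5a was seen in nearly every cell but at very different levels. It had a UMI in 99.6%, 96.4%, 99.8%, 91.2% and 97.7% of thinned BELA VE, VE cyst VE, BELA Epi, Epi cyst Epi and VE cyst Epi cells. Unthinned, these were 99.8%, 97.6%, 99.9%, 94.1% and 100%. The median cell held 43, 16, 19, 4 and 22 UMIs of Dppa5a among its 40000. VE cyst VE cells were the most uneven of the 5 groups. Their 10% and 90% points were 3 and 63.6 UMIs, 21.2-fold apart, against 14 and 92 UMIs, 6.57-fold apart, in BELA VE cells, and the 10% of VE cyst VE cells with the most held 43.1% of the group's Dppa5a UMIs. Before thinning the lower quartile of VE cyst VE cells was 164 CPM and the highest cell stood at 7621 CPM, around a median of 375 CPM. The level of 696 CPM given above is thus a mean over cells that differed widely, and by the median cell VE cyst VE cells lay below BELA Epi cells.

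**Figure D3:**
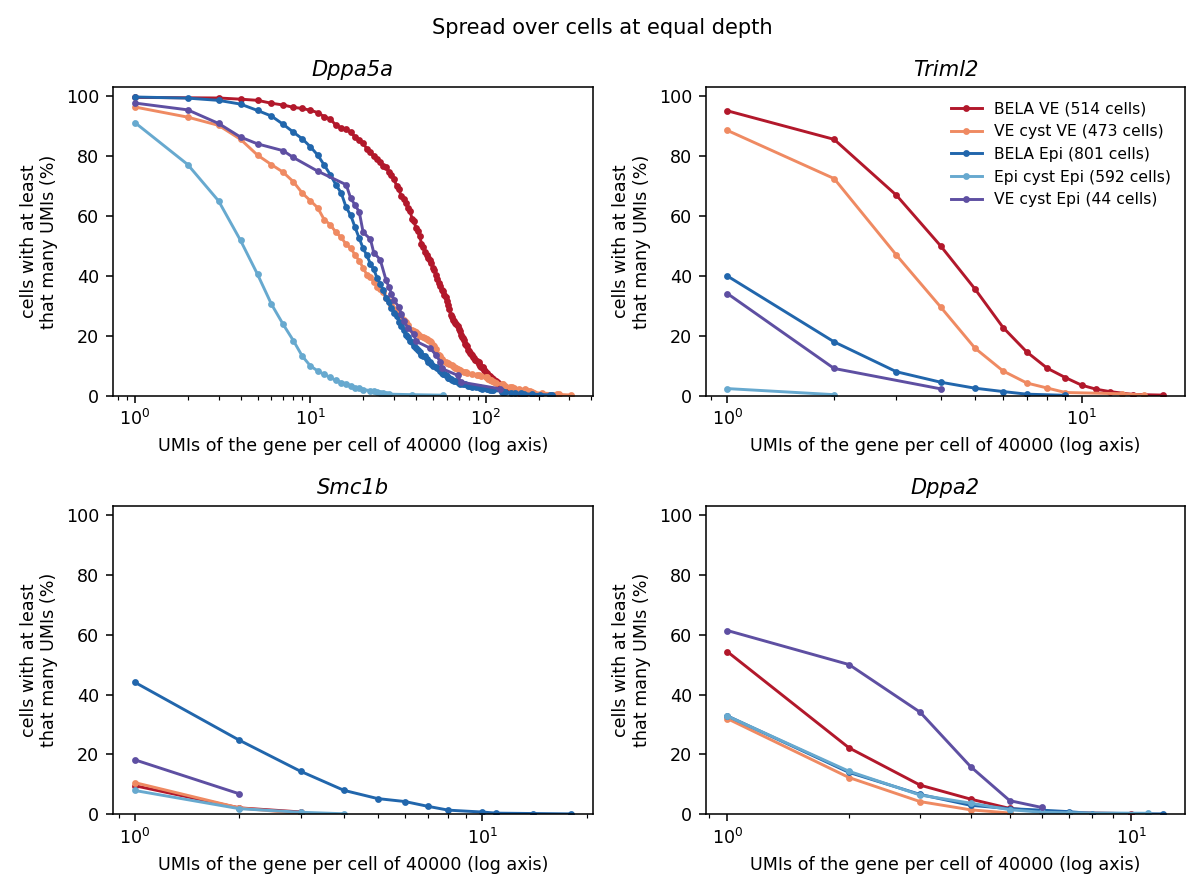
Share of cells in percent (y axis) with at least a given number of UMIs of a gene among 40000 UMIs per cell (x axis, log scale) for Dppa5a, Triml2, Smc1b and Dppa2, 1 line per group of cells with a point at each number seen. The line of VE cyst VE cells for Dppa5a falls over the widest range, from 3 UMIs at the 10% point to 63.6 at the 90% point of cells, and the line of BELA Epi cells for Smc1b starts at 44.1% and stands above the other groups.

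Within a group of cells at 1 depth, the rank correlation (Spearman's rho) of Dppa5a UMIs with the summed UMIs of the 4 VE markers was 0.418 over 473 VE cyst VE cells, and with the summed Epi markers it was 0.308. Over 801 BELA Epi cells Dppa5a had a rho of 0.325 with Dppa4 and 0.316 with Smc1b, while Dppa4 and Smc1b had 0.067. In BELA VE cells no pair of members exceeded 0.177. The cells of a group share 1 library and 1 depth, and these values are a description without a test.

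Cells were next split, after their values had been seen, by whether they held a UMI of 1 gene among their 40000. The 24 BELA Epi cells with Dppa3 stood higher in all other members than the 777 without, with intervals of counting error apart for 4 of the 5. Dppa2 stood at 53.1 (39.6 to 69.9) against 14.2 (12.9 to 15.5) CPM, Dppa5a at 1152 (1085 to 1222) against 634 (626 to 643) CPM, and Smc1b at 54.2 (40.5 to 71.0) against 26.1 (24.3 to 27.9) CPM. Triml2 was at 30.2 (20.2 to 43.4) against 18.4 (16.9 to 20.0) CPM, and Dppa4 at 77.1 (60.5 to 96.8) against 60.0 (57.3 to 62.8) CPM, where the intervals overlapped. The same cells held more Dnmt3l, a cofactor of the de novo DNA methyltransferases, at 60.4 (45.9 to 78.1) against 9.52 (8.47 to 10.7) CPM, and less Dnmt3b, one of those enzymes, at 706 (654 to 761) against 944 (934 to 955) CPM. Tfap2c, a transcription factor of primordial germ cells and of naive pluripotent cells, was at 14.6 (7.97 to 24.5) against 1.19 (0.838 to 1.64) CPM, from 14 UMIs in 6 cells. Of other primordial germ cell genes, Ifitm3 was at 84.4 (67.01 to 104.9) against 59.2 (56.5 to 62.0) CPM and Dnd1 at 11.5 (5.72 to 20.5) against 11.5 (10.3 to 12.7) CPM. Prdm1, Prdm14 and Nanos3 had 1, 0 and 0 UMIs in the 24 cells, and at 0.579, 0.0644 and 0.547 CPM in the other cells a difference was not detectable at this depth. The summed VE markers did not set these cells apart, at 22.9 (14.4 to 34.7) against 21.5 (19.9 to 23.2) CPM. Over all thinned BELA Epi cells the variance of UMIs was 24.2, 3.23, 2.42 and 2.10 times the mean for Dppa5a, Smc1b, Dppa2 and Triml2. The intervals leave out this spread between cells and are too narrow for 24 cells, so a gap or overlap of intervals is not a test.

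In Epi cysts 8 cells held Dppa3 and 584 did not. Dppa5a stood at 222 (173 to 280) against 119 (115 to 124) CPM, with intervals of counting error apart as in BELAs. For Dppa2 the values were 28.1 (12.9 to 53.4) against 15.2 (13.6 to 16.8) CPM, for Dppa4 65.6 (40.6 to 100.3) against 48.2 (45.5 to 51.1) CPM, and Triml2 had 0 UMIs in the 8 cells, which allows up to 9.38 CPM. These intervals overlapped. At 8 cells neither the gap for Dppa5a nor the overlap for the others is a test, because the intervals leave out the spread between cells.

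BELA Epi cells with Smc1b (353) had more Dppa5a than those without (448), at 809 (795 to 824) against 524 (514 to 535) CPM, and about the same Dppa2, at 15.7 (13.7 to 17.9) against 15.1 (13.3 to 17.0) CPM. Triml2 was also higher with Smc1b, at 22.3 against 16.0 CPM, as was Dppa3 at 1.56 against 0.614 CPM. For Dppa4, at 63.2 against 58.4 CPM, the intervals overlapped. Among BELA VE cells, the 207 with Lhx1, a transcription factor of the anterior visceral endoderm, had less Dppa5a than the 307 without, at 879 (859 to 900) against 1494 (1472 to 1515) CPM, and more Triml2, at 111 (104 to 119) against 89.9 (84.7 to 95.4) CPM. The 2 genes thus went opposite ways within the VE layer. The summed Epi markers also differed, at 20.2 (17.2 to 23.5) CPM with Lhx1 and 43.3 (39.7 to 47.2) CPM without, and their part in the difference was not tested. Among Epi cyst cells, the 154 with T, which marks the primitive streak, had less Dppa2 than the 438 without, at 8.44 (6.31 to 11.1) against 17.8 (15.8 to 19.8) CPM. Dppa5a, at 108.8 against 125 CPM, and Dppa4, at 42.2 against 50.7 CPM, were also lower with T. Of the members only Dppa3 was higher, at 0.487 against 0.285 CPM from 3 and 5 UMIs. The summed Epi markers were higher with T, at 785 against 692 CPM.

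**Figure D4:**
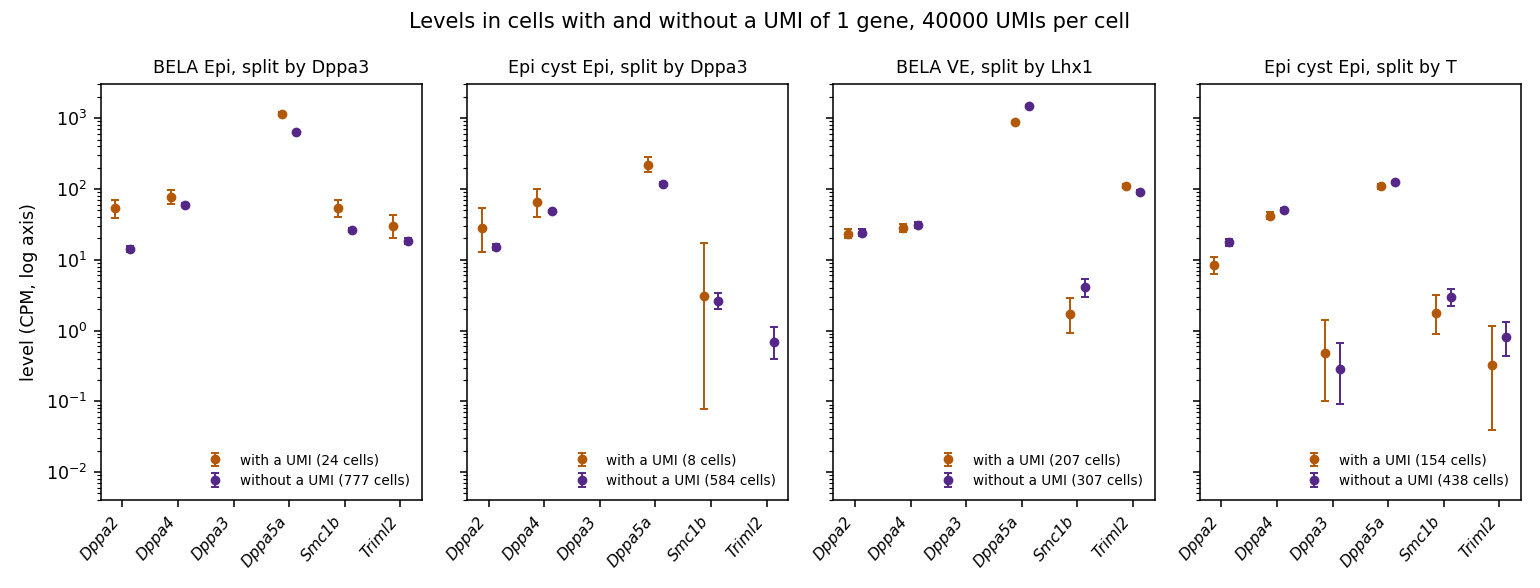
Levels of the members in CPM (y axis, log scale) in cells with and without a UMI of the gene named above each panel, at 40000 UMIs per cell. Points are levels and error bars exact 95% Poisson intervals, and a gene with 0 UMIs has no point. In BELA Epi cells with Dppa3, Dppa2 is at 53.1 against 14.2 CPM, and in BELA VE cells with Lhx1, Dppa5a is at 879 against 1494 CPM.

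The genes whose levels over the 5 groups were most like those of each member were found by the root mean square distance of centred log2(CPM + 5) among 9188 genes with at least 10 CPM in a group. With 5 points that share libraries, such likeness is easily met, most of all for Dppa3, whose levels spanned 0.25 on this scale and whose nearest genes were Mrpl1, Pmpcb and Scnm1. For Triml2, which spanned 4.12, the nearest genes were Gadd45b (distance 0.322), Dnmt3l (0.349) and Jun (0.421). For Dppa5a, which spanned 3.27, they were Plekha2 (0.497), Bnip3 and Anxa2. Smc1b was nearest to 1190005I06Rik (0.262), Lbh and Slc4a3, which were likewise highest in BELA Epi cells. Dppa2 was nearest to Gm10457 (0.200), Sec14l1 and 2810403D21Rik, all highest in the VE cyst Epi cells. Dppa4 was nearest to Fkbp5 (0.041), Gemin2 and Mrpl42.

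Smc1b was set beside the genes it works with in meiosis. List counts and medians here and below are over all genes of a list that were measured, including those under 1 CPM. Over all genes tested, 10.6% were called higher and 6.86% lower in VE than Epi cells of BELAs, and 15.3% and 8.98% in VE cysts. For BELA Epi over Epi cyst Epi cells these shares were 0.932% and 1%, and for BELA VE over VE cyst VE cells 1.25% and 2.25%. List counts are to be read beside these shares. With 5 CPM added, a gene below 5 CPM in both groups cannot be called whatever its ratio. Of 14 genes of meiotic cohesin and the chromosome axis, 1 was called higher and 3 lower in VE than in Epi cells of BELAs (median −0.13), and 2 higher and 1 lower in VE cysts (median −0.05). Syce1, of the synaptonemal complex, stood at 77.5 and 52.8 CPM in VE cells of BELAs and VE cysts and at 6.39, 5.45 and 13.9 CPM in BELA, Epi cyst and VE cyst Epi cells, opposite to Smc1b. Its partner Syce2 had the reverse order, at 50.9 and 36.1 CPM in VE cells and 125, 86.8 and 111 CPM in Epi cells. Stag3, the meiotic cohesin subunit, was at 11.4 CPM in BELA Epi cells and between 3.04 and 5.94 CPM elsewhere, and Rec8, the meiotic kleisin, lay between 2.48 and 5.26 CPM in all 5 groups. Sycp3, of the chromosome axis, stood at 305 CPM in BELA Epi and 139.8 CPM in Epi cyst Epi cells and was 1 of 2 genes of the list called higher in BELA Epi cells, with 0 lower (median 0.16). Between the VE cells of BELAs and VE cysts 0 of the 14 were called (median 0.02).

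The cohesin genes of dividing cells did not share the pattern of Smc1b. Of 10, 0 were called in BELAs (median −0.40), 1 lower in VE than Epi cells of VE cysts (Stag2, median −0.33) and 0 in either comparison of a lineage across libraries (medians 0.01 and −0.37). Smc1a, the counterpart of Smc1b, stood at 122, 106, 161, 169.9 and 160.5 CPM in BELA VE, VE cyst VE, BELA Epi, Epi cyst Epi and VE cyst Epi cells.

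Of 17 germline genes known to be silenced by DNA methylation, 0 were called higher and 1 lower in BELA VE than in BELA Epi cells (median −0.15), 0 higher and 2 lower in VE than in Epi cells of VE cysts (median −0.03), and 1 higher and 0 lower in BELA Epi than in Epi cyst Epi cells (median 0.29). The gene called in all 3 was Tuba3a, a testis tubulin, at 27.7 CPM in BELA Epi, 22.3 in VE cyst Epi, 7.19 in BELA VE, 6.51 in Epi cyst Epi and 2.11 in VE cyst VE cells. This order was that of Smc1b in its top groups, BELA Epi then VE cyst Epi. Tdrkh, of the piRNA pathway, was the other gene called lower in VE cyst VE cells. Between the VE cells of the 2 libraries 0 were called (median −0.05). Of the 17, only 5 reached 10 CPM in either lineage of BELAs. Those below 5 CPM in both groups of a comparison could not be called, so these counts do not show that such genes were alike.

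Of 9 primordial germ cell genes, 0 were called higher and 2 lower in BELA VE than BELA Epi cells (median 0.03), 1 and 1 in VE cysts (median 0.01), and 0 and 2 in BELA Epi than Epi cyst Epi cells (median 0.03). Ifitm3, an interferon-induced membrane protein found early in germ cells, stood at 59.1, 45.0 and 56.0 CPM in BELA, Epi cyst and VE cyst Epi cells and at 4.70 and 1.27 CPM in VE cells of BELAs and VE cysts. Dnd1, an RNA-binding protein of germ cells, was at 10.8 CPM in BELA Epi and 1.14 CPM in BELA VE cells. Alpl, the alkaline phosphatase, was lower in BELA Epi than Epi cyst Epi cells, at 7.003 against 34.7 CPM, as was Lin28a at 135 against 281 CPM. Kit, the receptor of germ cell migration, stood at 47.6 CPM in VE cyst VE cells and at 3.95 to 13.7 CPM elsewhere, and was the 1 gene of the list called lower in BELA VE than VE cyst VE cells (median 0.01). Prdm1, Prdm14, Tfap2c and Nanos3, which define germ cells, lay at or below 1.44 CPM in every group.

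Of 17 genes for repressors of germline genes, 1 was called higher and 5 lower in VE than Epi cells of BELAs (median −0.55), and 1 higher and 8 lower in VE cysts (median −0.55). The gene called higher was Dnmt3l, at 115 and 81.1 CPM in VE cells of BELAs and VE cysts and at 11.5, 3.40 and 10.9 CPM in BELA, Epi cyst and VE cyst Epi cells. Among those called lower, Dnmt3b stood at 335 and 94.9 CPM in VE cells and 958, 597 and 751 CPM in Epi cells, Cbx3 at 145 and 165 CPM against 368, 451 and 517 CPM, and Uhrf1 at 50.3 and 46.4 CPM against 122, 145 and 148 CPM. Dnmt3a was also among them in both libraries. Between Epi cells of BELAs and Epi cysts 0 of the 17 were called (median −0.11), and between VE cells of BELAs and VE cysts 1 was, Dnmt3b, higher in BELAs (median 0.02). A link between the RNA levels of these genes and those of the members was not tested. Of the 3 methylcytosine dioxygenases 0 were called higher and 1 lower in VE than Epi cells of BELAs (median −0.48), 1 and 1 in VE cysts (median 0.21) and 0 across libraries (medians −0.17 and −0.69). Tet1, abundant in pluripotent cells, was lower in VE cells of both libraries, at 21.4 and 27 CPM against 89.2, 62.0 and 59.7 CPM in Epi cells.

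Dppa2 and Dppa4 are known for their part in switching on genes of the 2-cell embryo, and 9 such genes were measured, among them Zscan4d at 0.899 CPM in BELA VE and 4.34 CPM in VE cyst VE cells. None of the 9 was called in any of the 4 comparisons (medians from −0.05 to 0.08), and each was below 5 CPM, the amount added, in every group. Of 9 oocyte genes and relatives of Dppa5a and Triml2, Triml1 was called higher in VE than in Epi cells of both libraries (medians 0.00 and 0.01), 2 genes, Triml1 and Ooep, higher in BELA Epi than Epi cyst Epi cells (median 0.07) and Ooep higher in BELA VE than VE cyst VE cells (median 0.02), with 0 lower. Ooep, which like Dppa5a has a KH domain, stood at 17.1, 3.10, 14.8, 4.13 and 10.4 CPM in BELA VE, VE cyst VE, BELA Epi, Epi cyst Epi and VE cyst Epi cells. It was higher in both lineages of BELAs than in the cysts of that lineage, as Dppa5a was.

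**Figure D5:**
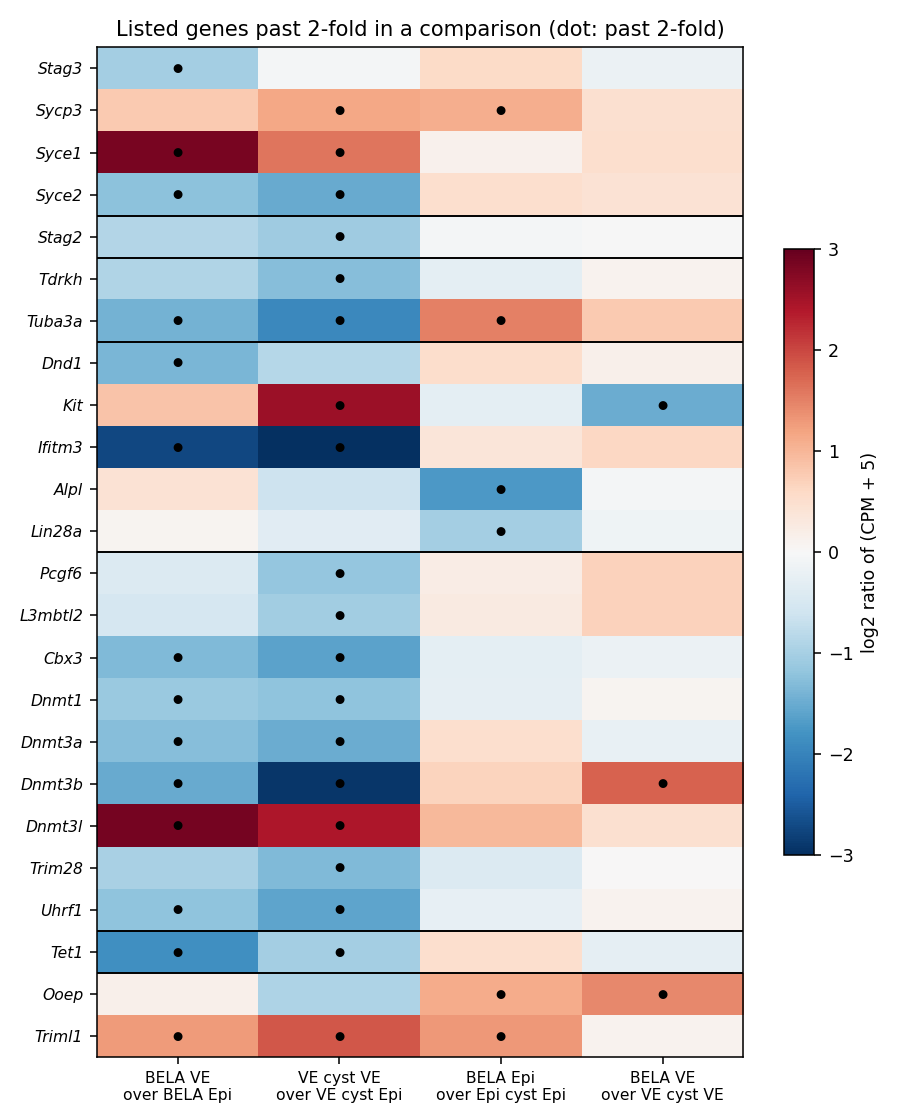
Log2 ratios of (CPM + 5) (colour, red higher and blue lower in the group named first) in the 4 comparisons (columns) for the 24 listed genes with at least 10 CPM in a group that passed 2-fold in a comparison, with a dot at each ratio past 2-fold and lines between the lists. Syce1 and Dnmt3l are red and Ifitm3 and Dnmt3b blue in both comparisons of VE with Epi cells.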

How the data were processed

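Single cells of 1 BELA, 1 Epi cyst and 1 VE cyst library were profiled with 10x Genomics 3′ chemistry. Per the labels and the study's methods, the authors aligned reads to mm10 and counted UMIs with Cell Ranger 4.0.0, and the deposited matrices hold raw counts per gene and barcode, from 2220, 1076 and 881 barcodes. The libraries shared 2, 0 and 1 cell barcodes pairwise.

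From these counts, cells were filtered at 4000 genes and 10% mitochondrial UMIs, assigned to a lineage by 4 markers each (0, 1 and 4 ties in BELAs, Epi cysts and VE cysts, counted as Epi), and summed per library and lineage into 126625916, 40962566 and 39793263 UMIs in all. Doublets called by Scrublet (scanpy 1.11.5; 31, 14 and 3 cells) were kept, and left out as an alternative. Levels carry exact Poisson, ratios exact conditional binomial and shares Clopper-Pearson 95% intervals (scipy 1.17.1, numpy 2.4.6, pandas 2.3.3, Python 3.11.15). Where a count was 0, the limit given is that of 3 counts, or of 3 cells for a share, and lies below the upper end of those intervals. One UMI in a group was worth between 0.0139 and 0.232 CPM. The calls were tested on simulated data. Promoters are RefSeq's on GRCm38.p6, gene positions GENCODE's on GRCm38.

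The members and gene lists were chosen with earlier results of these data known. Besides the 6 members, the text names up to 4 genes per list and comparison past 2-fold with at least 10 CPM by the largest ratio, or the 2 highest where none passed, and the 3 genes nearest to each member. Triml1 by position, Smc1a, Rec8, Hormad1, Zscan4d, Prdm1, Prdm14, Tfap2c and Nanos3, and the genes of the splits were named after their values were seen. Alternatives covered the filter, lineage rule, doublets, depth, averaging, total, added CPM and low members. Of these, 2 lineage rules were added after the data had been seen.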

Additional observations from a re-analysis of the deposited data

Results flagged for a closer look

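The lineage difference of Dppa2 went opposite ways in the 2 libraries that held both lineages. Its level in VE cells over that in Epi cells was 1.53 (1.41 to 1.66) for BELAs, whereas VE cysts gave 0.306 (0.259 to 0.364). The intervals cover counting error only, each library is a single sample, the direction in BELAs turned (log2 ratio −0.22, against 0.48) when lineages were called by 4 other markers each, and the difference between the libraries was not tested. The 48 Epi cells of VE cysts on which the second ratio rests had 3.09-fold (2.64 to 3.60) more Dppa2 than BELA Epi cells, at 75% of cells with a UMI before thinning against 45.9%.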

How the results depend on the processing

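No paired analysis was possible because each type of aggregate is 1 library, without replicate numbers. The 24 log2 ratios were recomputed under 12 alternatives, and of 282 values 270 kept their direction and 271 their side of 2-fold. Part of this was fixed in advance. The alternative limited to members with at least 10 CPM reuses the reported levels, and a different added CPM cannot turn a direction. Dppa3 without a UMI in either group of VE cells was counted as unchanged. Of 96 counts of called members 87 stayed within 1.5 times. Members called lower in VE than Epi cells of VE cysts, 1 as reported, were 2 with marker sums at least 10 times apart, with the 4 other markers per lineage, with the mean of the cells' own CPM and without mitochondrial and ribosomal genes, 3 with 1 CPM added and 0 with 20 CPM added. Lower in BELA VE than BELA Epi cells were 0 of 1 with the 4 other markers, and higher in BELA VE than VE cyst VE cells 1 (Smc1b) with them and 1 (Dppa5a, 1.20) in cells without the other lineage's markers. The 4 other markers per lineage put 1169 BELA cells in VE, Apoe standing at 733 CPM in BELA Epi cells. There Dppa2 was at −0.22 and Smc1b at −0.72 in BELA VE over BELA Epi cells, and Triml2 at −0.23 in BELA VE over VE cyst VE cells. Without Apoe and Tdh, added after the data had been seen, 553 BELA cells were VE and no count moved. Dppa5a in VE cyst VE over VE cyst Epi cells ranged to −0.12, and Triml2 in BELA Epi over Epi cyst Epi cells was 0.89 with 20 CPM added. Values of Dppa3 rest on at most 59 UMIs in a group, and those of Epi cells in VE cysts on 48 cells.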
